A study of Mus musculus with 6 samples.

Results

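The insulin-like growth factor (IGF) binding proteins and IGF receptors are 9 genes chosen by symbol: the binding protein genes Igfbp2, Igfbp3, Igfbp4, Igfbp5, Igfbp6 and Igfbp7, the ligand gene Igf1 and the receptor genes Igf1r and Igf2r. Each was found as a single row among the 54532 genes of the deposited table. The study labels 3 RNA-seq libraries as young, from mice aged 3 months, and 3 as aged, from mice aged 18 months, and names lung as the tissue of all 6. No treatment or genetic change is named, and neither strain nor sex is given in the sources used here. The design asks how transcripts differ between the ages. Nothing in the labels ties a library to its own mouse, so the p-values below describe the spread among libraries, part of which may be technical.

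IGF1 and IGF2 are secreted growth factors that act through the IGF1 receptor, a tyrosine kinase that signals through insulin receptor substrates, PI3K and AKT. The IGF2 receptor lacks kinase activity. It takes up IGF2 for degradation and also carries lysosomal enzymes that bear mannose 6-phosphate. The IGF-binding proteins are secreted too, hold IGFs away from the receptor or deliver them to it, and are freed of their cargo by proteases. Several of them are secreted by senescent fibroblasts, and in lung, fibroblasts and macrophages are sources of IGF1.

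For most of the cell types of lung, the contents of the libraries went against the tissue label. Over 8 marker lists for lung epithelium, mesothelium, endothelium and blood, 35 of 44 genes stayed under 1 FPKM (fragments relative to gene length and library size) in every library, with the alveolar type 2 gene Sftpc at no more than 0.112 and endothelial Pecam1 at no more than 0.322. The exceptions at 10 FPKM or more in all 6 libraries were Napsa of the alveolar type 2 list, Pdpn and Aqp5 of the alveolar type 1 list and the mesothelial gene Msln. Some summed lists moved with the groups without overlap. The alveolar type 1 list lay between 105 and 110 FPKM in the young-labelled libraries and between 178 and 196 FPKM in the aged-labelled ones. The mesothelial list, nearly all of it Msln, lay between 56.9 and 61.9 against 81.4 and 89.1 FPKM. The leukocyte list, nearly all of it Cd68, lay between 6.38 and 8.16 against 16.5 and 17.7 FPKM. Of all 13 marker lists the sum was higher in the aged-labelled libraries without overlap for 7, fibroblast and cell cycle among them. It was lower for 2 (alveolar type 2, most of it Napsa, and smooth muscle, with 4 of 5 genes under 1 FPKM) and overlapping for 4. Among the 7 higher lists, club and endothelial held only genes under 1 FPKM in every library. The groups were free of overlap for 66.9% of all tested genes, so these counts do not set the marker lists apart. The part of these lists in the results below was not tested. A higher sum did not mean that each member was higher. The fibroblast gene Col1a1 was lower in the aged-labelled libraries, at 164 ± 17.2 against 245 ± 8.45 FPKM (mean and SD, n = 3). The cell cycle gene Mki67 was lower too, at 54.3 ± 2.07 against 76.0 ± 1.87 FPKM. In the alveolar type 1 list, Pdpn and Aqp5 were higher in every aged-labelled library, Rtkn2 overlapped and Hopx was lower, at 5.68 to 6.48 FPKM. Of 10 fibroblast markers, 7 reached at least 10 FPKM in all 6 libraries, as did all 10 cell cycle markers, whereas the fibroblast gene Dcn reached no more than 0.109 FPKM. Transcripts of 10 kidney tubule genes summed to 135, 1.55 and 27.5 FPKM in the young-labelled libraries, replicates 1 to 3, and to 2.39 to 3.29 FPKM in the aged-labelled ones. The groups are therefore called labelled young and labelled aged, and rose and fell describe the second relative to the first. Whole reads recovered from the values summed to 16649061 to 17456715 per library. Genes with at least 1 read numbered 24074 to 24363 in the young-labelled libraries and 26703 to 26925 in the aged-labelled ones.

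Of the 9 genes, 6 passed the filter on low values (0.5 FPKM in at least 3 libraries), each through both groups, and all 6 changed between the groups. Igfbp7 and Igf2r rose, and Igf1, Igfbp6, Igf1r and Igfbp4 fell. The largest differences were in Igf1, 2.22-fold lower, Igfbp7, 1.84-fold higher, and Igfbp6, 1.83-fold lower, as ratios of mean FPKM. The test was limma on log2(FPKM + 1), with p-values adjusted over 15197 genes at a threshold of 0.05. By the same test 60.0% of all genes changed, 27.7% upward and 32.3% downward, against 2 and 4 of the 6 tested members, so a call alone sets these genes little apart from the rest. For each of the 6 the groups were free of overlap, as they were for 66.9% of all tested genes. In size they spread widely. An absolute log2 fold change larger than that of Igf1 was seen in 6.44% of tested genes, than that of Igfbp6 in 7.48% and than that of Igfbp7 in 11.4%, but than that of Igfbp4 in 68.4% and than that of Igf2r in 74.4%. Bulk libraries cannot tell fewer cells of a type from less RNA per cell.

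**Figure D1:**
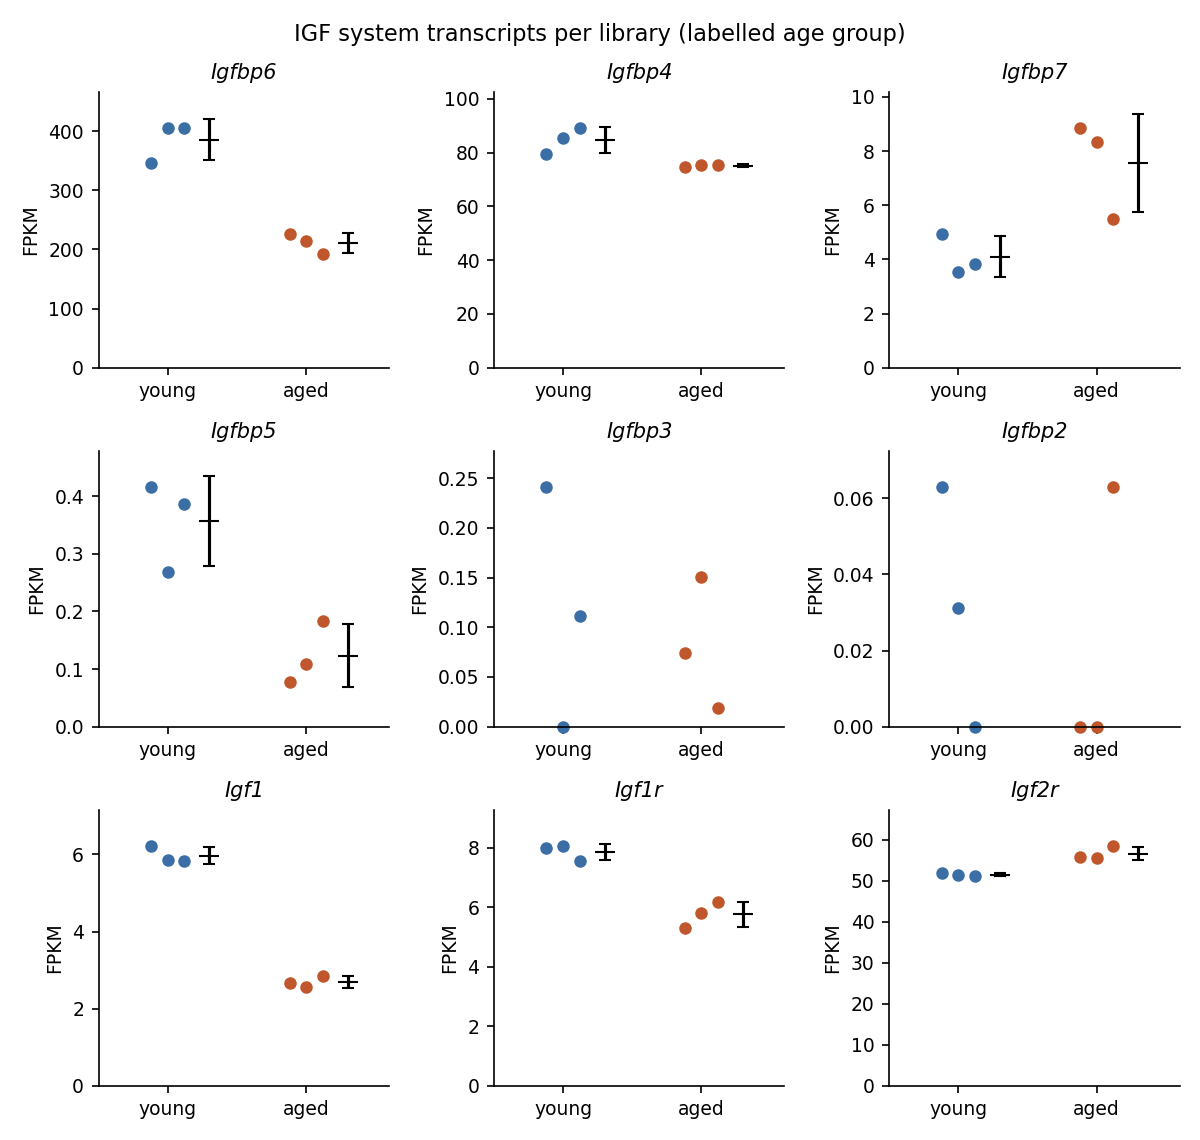
Level of the 9 genes in FPKM on a linear axis from 0, with 1 point per library and, beside the points, the mean and SD of each labelled group (n = 3), left out for Igfbp2 and Igfbp3, whose values rest on a few reads. Igf1, Igfbp6, Igf1r and Igfbp4 lie lower in every aged-labelled library, Igfbp7 and Igf2r lie higher, and Igfbp3 and Igfbp2 overlap near 0.

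Igf1, the ligand (ENSMUSG00000020053, chromosome 10, 87858265 to 87937042, plus strand, mm10), stood at 6.22, 5.86 and 5.83 FPKM in the young-labelled libraries and at 2.66, 2.56 and 2.86 FPKM in the aged-labelled ones. Every aged-labelled library was under every young-labelled library, with a gap several times the spread within either group. The means were 5.97 ± 0.218 and 2.69 ± 0.150 FPKM (SD, with n = 3 per group throughout), and the log2 fold change was -0.92 ± 0.05 (SE, limma adjusted p = 2.3e-05). These values rest on 997 to 1061 reads per young-labelled library and 430 to 486 per aged-labelled library. The other IGF ligand gene, Igf2, known for its high level in fetal tissue, had 1 read over the 6 libraries, and Ins1, an insulin gene of the pancreas, had 0 reads, which allows up to 3 reads or 0.174 FPKM in a library.

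Igf1 shares its locus with Igf1os, an antisense RNA on the minus strand (chromosome 10, 87826377 to 87863381). The spans overlap by 5117 bases, with 0 bases shared between annotated exons. Igf1os had 2, 4 and 7 reads in the young-labelled libraries and 29, 29 and 25 in the aged-labelled ones, or 0.0962 ± 0.0559 and 0.620 ± 0.0541 FPKM. The ratio of summed reads was 6.45 in favour of the aged-labelled libraries, with 3.57 to 12.6 as its exact 95% counting interval. Igf1os passed the filter through the aged-labelled libraries alone, so no test is given for it. More genes had any read in the aged-labelled libraries, and the share of low genes that rose in this way was not computed. No source used here says whether the counting used strand, so reads from the stretch common to both genes cannot be assigned to either with certainty.

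Igfbp6, which prefers IGF2 over IGF1, was the most abundant of the 9 genes in every library (ENSMUSG00000023046, chromosome 15, 102144362 to 102149511, plus strand). It stood at 345, 405 and 405 FPKM in the young-labelled libraries and at 226, 214 and 192 FPKM in the aged-labelled ones. Replicate 1 was the lowest of the young-labelled libraries and still lay well above all the aged-labelled ones. The means were 385 ± 34.7 and 211 ± 17 FPKM, and the log2 fold change was -0.87 ± 0.08 (SE, limma adjusted p = 0.00017). Igfbp6 exceeded 99.5% of tested genes by mean FPKM in the young-labelled libraries and 98.9% in the aged-labelled ones.

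Igfbp4, an inhibitory binding protein cleaved by the protease PAPP-A (ENSMUSG00000017493, chromosome 11, 99041244 to 99054392, plus strand), was the next most abundant. Its level was 79.3, 85.5 and 89.2 FPKM in the young-labelled libraries and 74.7, 75.4 and 75.5 FPKM in the aged-labelled ones. The groups nearly met, and the aged-labelled libraries were almost alike. Igfbp4 fell by 0.17 ± 0.05 on the log2 scale (SE, limma adjusted p = 0.0173), or 1.13-fold. The call was lost at adjusted p = 0.0964 after median centring, at adjusted p = 0.0568 without young replicate 2 and at adjusted p = 0.0527 without aged replicate 1.

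Igfbp7, a low-affinity relative that binds IGFs weakly and is secreted into the matrix (ENSMUSG00000036256, chromosome 5, 77349240 to 77408041, minus strand), was the only binding protein gene of the 3 tested that rose. It stood at 4.95, 3.53 and 3.83 FPKM in the young-labelled libraries and at 8.85, 8.34 and 5.49 FPKM in the aged-labelled ones. Aged replicate 3 lay close to young replicate 1, and the other aged-labelled libraries were far higher. The means were 4.10 ± 0.748 and 7.56 ± 1.81 FPKM, and the log2 fold change was 0.73 ± 0.18 (SE, limma adjusted p = 0.0103), the widest relative spread of the 6. The values rest on 74 to 103 reads per young-labelled library and 114 to 184 per aged-labelled library. Its end shares 85 exon bases with the end of Polr2b on the other strand, 7.03% of the exon bases of Igfbp7. Polr2b, an RNA polymerase II subunit gene, fell from 35.1 ± 0.806 to 29.9 ± 1.21 FPKM, and its part in the values of Igfbp7 was not tested.

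The remaining binding protein genes were at or near 0. Igfbp5, which binds matrix and is abundant in many fibroblasts (chromosome 1, 72857932 to 72874884, minus strand), had 43, 28 and 40 reads in the young-labelled libraries and 8, 11 and 19 in the aged-labelled ones, at most 0.416 FPKM. The groups did not overlap, as they did not for 66.9% of the genes that passed the filter. The ratio of summed reads was 2.89 in favour of the young-labelled libraries, with an exact 95% counting interval of 1.98 to 4.30. That interval pools the libraries of a group and leaves out the spread between them. Igfbp5 failed the filter and has no test in the main fit. Without a filter on low values, limma gave a log2 fold change of -0.27 ± 0.07 (SE, adjusted p = 0.0265) for Igfbp5. The share of all genes called in that fit is not given here, so this value does not set Igfbp5 apart. Igfbp3, the main carrier of IGFs in blood and a known p53 target (chromosome 11, 7206086 to 7213923, minus strand), had 13, 0 and 6 reads in the young-labelled libraries and 4, 8 and 1 in the aged-labelled ones. Igfbp2, of fetal and tumour tissue (chromosome 1, 72824503 to 72852474, plus strand), had 5 reads in all, and neither gene could be told apart between the groups at this depth (adjusted p = 0.739 for Igfbp3 and adjusted p = 0.781 for Igfbp2 by limma without a filter). Igfbp1, the liver-enriched binding protein, had 3 reads in all, and Igfals, which completes the circulating IGF complex, had 7. In the young-labelled libraries, replicates 1 and 3, which held kidney transcripts, had the higher reads of Igfbp5 and Igfbp3. Young replicate 2, where the kidney genes summed to 1.55 FPKM, had 28 Igfbp5 reads, against at most 19 in an aged-labelled library, and 0 of Igfbp3. The part of kidney transcripts in these reads was not tested, and with a single such young-labelled library it cannot be told apart.

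The 4 promoter stretches below belong to the genes on which these results turn, the largest falls (Igf1 and Igfbp6), the larger of the 2 rises (Igfbp7) and the abundant gene that moved least among the binding proteins (Igfbp4). Each is the 250 bases before the RefSeq start site on the gene's own strand, 5′ to 3′, from RefSeq's GRCm38.p6 table, which matched all 9 genes, and capitals mark every match to the 7 motifs given after them. The RefSeq start lies at the start given by the deposited table for Igfbp4, 4 bases before it for Igfbp7 and 176 bases before it for Igfbp6. For Igf1 it lies 2846 bases inside the gene, within the span of Igf1os.
Igf1, chr10:87860861-87861110, plus strand: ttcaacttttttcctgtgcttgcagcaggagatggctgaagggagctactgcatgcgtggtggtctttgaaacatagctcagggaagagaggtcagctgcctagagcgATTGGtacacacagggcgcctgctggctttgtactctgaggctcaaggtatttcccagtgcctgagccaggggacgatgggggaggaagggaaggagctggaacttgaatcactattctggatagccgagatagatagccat
Igfbp6, chr15:102143936-102144185, plus strand: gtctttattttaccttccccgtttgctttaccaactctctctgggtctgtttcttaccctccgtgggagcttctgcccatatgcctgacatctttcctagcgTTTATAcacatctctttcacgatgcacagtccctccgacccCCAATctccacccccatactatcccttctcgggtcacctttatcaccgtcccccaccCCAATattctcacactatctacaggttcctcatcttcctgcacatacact
Igfbp7, chr5:77408046-77408295, minus strand: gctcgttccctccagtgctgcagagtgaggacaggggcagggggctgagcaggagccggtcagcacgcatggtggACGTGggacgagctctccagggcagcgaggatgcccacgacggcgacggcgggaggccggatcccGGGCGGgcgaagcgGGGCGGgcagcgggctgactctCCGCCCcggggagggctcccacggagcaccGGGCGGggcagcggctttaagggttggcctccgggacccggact
Igfbp4, chr11:99040994-99041243, plus strand: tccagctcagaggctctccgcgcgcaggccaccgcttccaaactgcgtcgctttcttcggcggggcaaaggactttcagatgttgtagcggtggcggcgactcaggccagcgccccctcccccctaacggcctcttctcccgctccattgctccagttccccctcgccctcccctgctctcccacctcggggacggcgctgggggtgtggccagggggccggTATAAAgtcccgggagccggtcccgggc
The motifs, searched on both strands in these 250 bases, were the TATA box written as TATAAA, the CCAAT box, the GC box as GGGCGG, the hypoxia response core as ACGTG, the E-box as CACGTG (which contains the hypoxia response core), the AP-1 site as TGACTCA and the FOXO core as GTAAACA. Igfbp4 held a TATA box from 28 to 23 bases before its start. At any place and on either strand, the motif was found in 12.4% of 32851 such stretches. Igfbp6 held TATAAA on the other strand from 148 to 143 bases before its start and 2 CCAAT boxes, and Igf1 held 1 CCAAT box, a motif in 33.8% of stretches. Igfbp7 held 4 GC boxes, where 32.7% of stretches held at least 1, and 1 hypoxia response core, a motif in 16.6% of stretches. The share of G and C was 74% for Igfbp7 and 69.2% for Igfbp4, against 49.6% for Igfbp6, 52.8% for Igf1 and a median of 52.4% over all stretches. GC boxes were also present before Igf1r, Igf2r and Igfbp2, and hypoxia response cores before Igf2r and Igfbp2. No FOXO match was found before any of the 9 genes. A match describes letters only.

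Igf1r, the signalling receptor (ENSMUSG00000005533, chromosome 7, 67952827 to 68233668, plus strand), stood at 7.98, 8.06 and 7.56 FPKM in the young-labelled libraries and at 5.31, 5.81 and 6.16 FPKM in the aged-labelled ones. All aged-labelled libraries were lower. The means were 7.86 ± 0.269 and 5.76 ± 0.428 FPKM, a 1.37-fold difference with a log2 fold change of -0.39 ± 0.06 (SE, limma adjusted p = 0.00119). Igf2r, the clearance and sorting receptor (ENSMUSG00000023830, chromosome 17, 12682406 to 12769664, minus strand), stood at 52.0, 51.4 and 51.1 FPKM against 55.8, 55.6 and 58.5 FPKM. The difference was small and the spread smaller, with means of 51.5 ± 0.415 and 56.6 ± 1.61 FPKM, a ratio of 1.10 and a log2 fold change of 0.13 ± 0.03 (SE, limma adjusted p = 0.00935). Airn, the antisense RNA known for silencing the paternal copy of Igf2r, lies partly within its span and shares 0 exon bases with it. Airn stood at 1.65 ± 0.0276 and 1.87 ± 0.153 FPKM and did not pass the test (limma adjusted p = 0.191).

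Without young replicates 1 and 3, the libraries with kidney transcripts, a single young-labelled library remained, assumed to vary like the aged-labelled libraries. In that fit 41.0% of all genes were called, 19.3% higher and 21.7% lower. The 4 falls were still called, while both rises lost their call, at adjusted p = 0.0531 for Igfbp7 and adjusted p = 0.103 for Igf2r. The log2 fold changes themselves were 0.90 for Igfbp7 and 0.14 for Igf2r, no smaller than with all libraries.

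**Figure D2:**
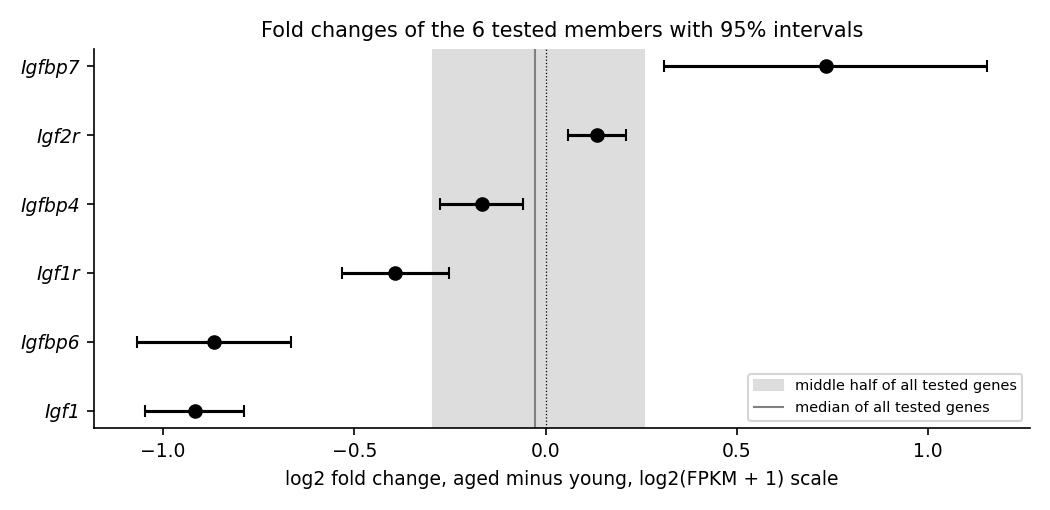
Log2 fold change of the 6 tested genes (aged minus young, log2(FPKM + 1) scale) as points with 95% limma intervals. The grey band spans the middle of all 15197 tested genes, from a lower quartile of -0.30 to an upper quartile of 0.26, and the grey line is their median of -0.03. Igf1, Igfbp6 and Igfbp7 lie wholly outside the band, Igf2r and Igfbp4 lie wholly inside it and Igf1r crosses its lower edge.

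By level in the young-labelled libraries the order was Igfbp6, Igfbp4, Igf2r, Igf1r, Igf1, Igfbp7, Igfbp5, Igfbp3 and Igfbp2. Only the neighbours Igfbp3 and Igfbp2 overlapped. In the aged-labelled libraries Igfbp7 moved from below Igf1 to above it, and its values overlapped those of Igf1r. Igfbp5 and Igfbp3 overlapped there too, as did Igfbp3 and Igfbp2.

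Summed over the 6 binding protein genes, the level was 430, 495 and 499 FPKM in the young-labelled libraries and 309, 298 and 273 FPKM in the aged-labelled ones. The sum was 1.62-fold lower in the aged-labelled libraries, at 294 ± 18.4 against 475 ± 38.4 FPKM. An exact 2-sided permutation test gave p = 0.1, the smallest that 3 against 3 libraries allow, so no sum or share can pass 0.05 by this test. Igfbp6 supplied 80.2%, 81.9% and 81.3% of the sum in the young-labelled libraries and 73.0%, 71.8% and 70.3% in the aged-labelled ones. Igfbp4 supplied 17.9% ± 0.576 and 25.7% ± 1.76, and Igfbp7 0.877% ± 0.238 and 2.56% ± 0.476. Each of these 3 shares had exact p = 0.1, adjusted p = 0.2 over the 6 shares. Shares within a library depend on each other, and the level of Igfbp4 itself was lower in the aged-labelled libraries though its share was higher. Igfbp2, Igfbp3 and Igfbp5 together stayed under 1% in every library. A share within a library does not depend on how that library was scaled.

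**Figure D3:**
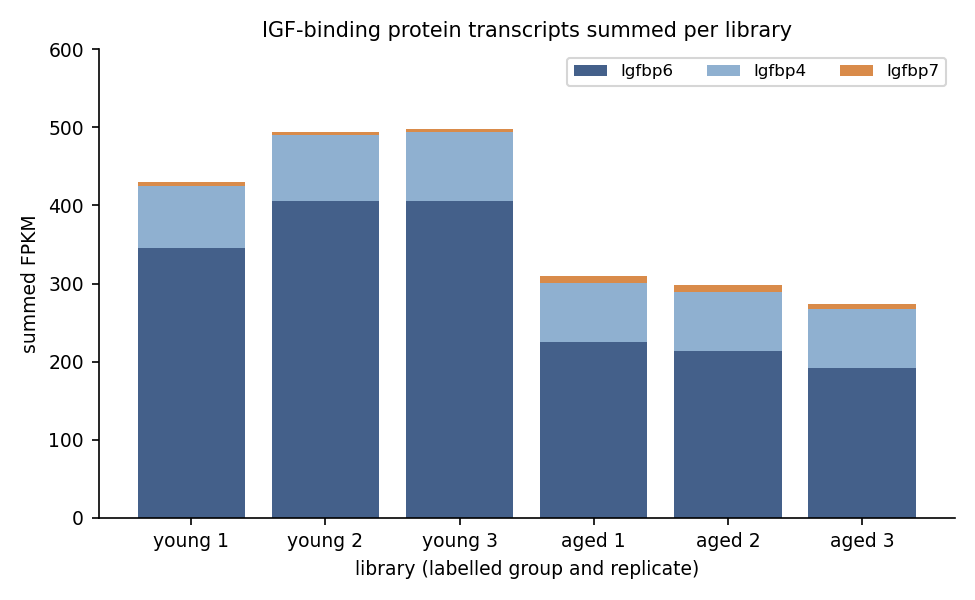
Summed level of IGF-binding protein transcripts per library, in FPKM on a linear axis from 0, with Igfbp6, Igfbp4 and Igfbp7 stacked (Igfbp2, Igfbp3 and Igfbp5 are too low to draw). The bars of the aged-labelled libraries end between 273 and 309 FPKM, under the young-labelled ones, mainly through a shorter Igfbp6 part.

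Other genes of the IGF system were taken from 8 lists of 92 genes, of which 68 passed the filter. Of these, 22 rose, 25 fell and 21 did not pass the test, so 69.1% changed against 60.0% of all genes, with a median log2 fold change of 0.00 against -0.03. Of all tested genes 27.7% rose and 32.3% fell, the shares against which the counts by list below stand. No list was tested as a set, each holds few tested genes, and the lists were chosen with earlier results of these data known. Without the libraries with kidney transcripts 19 rose and 16 fell, in a fit that called 41.0% of all genes. None of the 5 further ligand and carrier genes (Igf2, Ins1, Ins2, Igfbp1, Igfals) passed the filter.

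Among the insulin receptors and their adaptors, 1 of 12 tested genes rose, 6 fell and 5 did not pass (27.7% and 32.3% of all tested genes rose and fell). Insr, the insulin receptor, which pairs with the IGF1 receptor in hybrids, fell from 7.58 ± 0.201 to 4.33 ± 0.206 FPKM (a log2 difference of -0.69 ± 0.05, SE, with limma's adjusted p = 4.38e-05). Irs1, the docking protein that links both receptors to PI3K, fell 1.42-fold, from 46.4 ± 0.364 to 32.7 ± 2.09 FPKM. Socs2, an inhibitor of growth hormone signalling, rose 1.91-fold from 0.783 ± 0.0320 FPKM. In the list of PI3K, AKT and FOXO genes 6 of 19 rose, 7 fell and 6 did not pass. Pik3cb, a catalytic subunit of PI3K, fell 1.57-fold to 8.15 ± 0.308 FPKM. Foxo3, a transcription factor that AKT holds out of the nucleus, rose 1.45-fold to 12.1 ± 0.639 FPKM, and Rptor, the scaffold of mTOR complex 1, rose 1.51-fold from 4.65 ± 0.0958 FPKM.

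The list of binding protein proteases and their inhibitors had 1 of 7 tested genes higher, 3 lower and 3 that did not pass. Ctsd, the lysosomal protease cathepsin D, rose 2.26-fold, from 66.4 ± 4.18 to 150 ± 3.80 FPKM (a log2 difference of 1.17 ± 0.05, SE, with limma's adjusted p = 7.44e-06). C1ra, a complement protease, fell 1.75-fold to 9.94 ± 0.704 FPKM, and Adamts1, a secreted metalloproteinase, fell from 1.36 ± 0.0948 to 0.584 ± 0.0389 FPKM. Of genes whose proteins carry an IGFBP-type domain, 5 of 7 rose, 1 fell and 1 did not pass, beside 27.7% and 32.3% of all tested genes that rose and fell. The matricellular genes Ccn4 and Ccn5 rose 1.32-fold and 1.58-fold, to 30.6 ± 0.651 and 36.7 ± 1.28 FPKM, and Kazald1 fell 2.43-fold from 3.88 ± 0.294 FPKM. Among partners that bind these proteins on cells, 4 of 6 rose, 1 fell and 1 did not pass. Cd93, a transmembrane receptor of endothelium to which IGFBP7 binds, rose from 0.722, 0.768 and 0.581 FPKM to 8.12, 8.27 and 8.13 FPKM (a log2 difference of 2.44 ± 0.06, SE, with limma's adjusted p = 1.66e-06), while the 6 endothelial markers summed to 0.412 to 0.606 and 0.922 to 1.20 FPKM. Lrp1, an endocytic receptor that binds IGFBP3, rose 1.83-fold to 92.8 ± 4.17 FPKM, and Itga5, an integrin subunit that binds fibronectin, fell 1.49-fold to 26.9 ± 0.798 FPKM.

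Of 11 genes in the list for mannose 6-phosphate sorting, where Igf2r acts, 4 rose, 3 fell and 4 did not pass. Vps29, of the retromer that recycles Igf2r, rose 1.86-fold to 12.4 ± 0.398 FPKM. Plaur, the urokinase receptor, which was placed in this list but is not itself a sorting gene, rose 1.70-fold to 38.7 ± 3.88 FPKM. Gga1, an adaptor of the same sorting route, fell 1.56-fold to 14.9 ± 0.873 FPKM. In the list for Igf2 RNA and its locus 1 of 6 tested genes rose, 4 fell and 1 did not pass. The RNA-binding genes Igf2bp2 and Igf2bp3 fell 1.21-fold and 1.23-fold, to 11.8 ± 0.165 and 11.0 ± 0.528 FPKM. Hmga2, a chromatin protein gene that promotes Igf2 expression, rose 7.26-fold, from 11.4 ± 0.324 to 83.0 ± 2.65 FPKM (a log2 difference of 2.76 ± 0.04, SE, with limma's adjusted p = 3.04e-07), while Igf2 itself had 1 read over the 6 libraries.

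**Figure D4:**
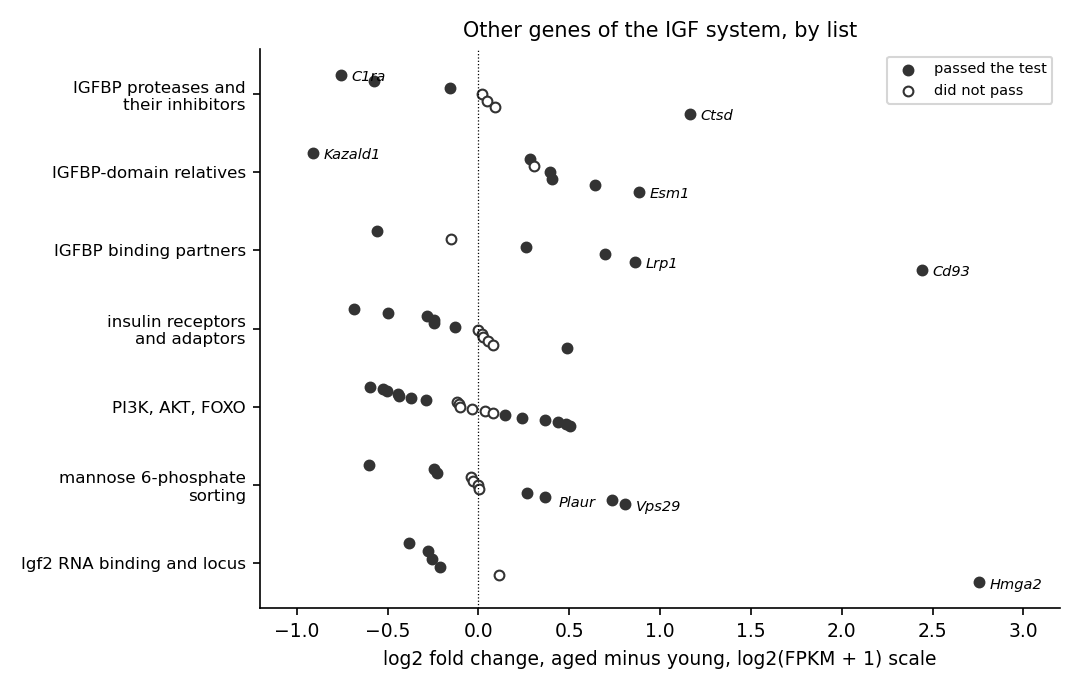
Log2 fold change (aged minus young, log2(FPKM + 1) scale) of the 68 tested genes of 7 lists of the IGF system, 1 point per gene, filled where limma's adjusted p was under 0.05 and open otherwise. Hmga2 and Cd93 lie farthest to the right at 2.76 and 2.44, and most genes of the receptor and adaptor list that passed lie to the left of 0.

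The tested genes most like the largest fall and the largest rise were sought by the root mean square difference between centred log2(FPKM + 1) profiles over the 6 libraries. For Igf1 they were Rev3l, the catalytic subunit of DNA polymerase zeta, at 0.0152, Elovl1, a fatty acid elongase, at 0.0204 and Sqor, a sulfide oxidoreductase, at 0.0257. For Igfbp7 the differences were larger, at 0.113 for Gm30556, a long noncoding RNA, 0.114 for Gm6851, a processed pseudogene, and 0.124 for Prkar1b, a regulatory subunit of protein kinase A. Gm30556 and Prkar1b averaged 0.378 and 0.344 FPKM in the young-labelled libraries, under the 0.5 FPKM of the filter, against 1.24 and 1.20 FPKM in the aged-labelled ones. Likeness of this kind was not tested.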

How the data were processed

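RNA from 6 libraries was analysed. The authors deposited a table of FPKM values for 54532 genes, made from read pairs aligned with HISAT2 2.0.5 to mm10, per the labels' protocols and the submitters' processing notes. The sources used here name no counting program, annotation or use of strand. Values times gene length were whole multiples of 1 step per library (tolerance 0.01) for 100% of values above 0, which gave back whole reads. Intervals on reads cover counting error only. Each library counted as 1 sample. Pairs of libraries of a group differed by more than sampling noise (chi-square per degree of freedom 2.25 to 4.93 over genes with at least 50 reads). That excess cannot show whether they came from separate mice.

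Genes with at least 0.5 FPKM in at least 3 libraries were compared on log2(FPKM + 1) with limma 3.58.1 in R 4.3.3 (linear model on group, mean-variance trend, 2-sided, Benjamini-Hochberg adjustment over 15197 genes). The script was tested on simulated data first. Fold changes on that scale understate those of low genes. Folds in the text are ratios of mean FPKM. Sums and shares used exact permutation tests in scipy 1.17.1 under Python 3.11.15. Gene coordinates are those of the table and are the same as in GENCODE vM21 for all 9 genes. Alternatives changed the pseudocount (0.1 or 0.5), filter, scaling, moderation, threshold, replicate block and libraries. Added were limma's voom on recovered reads and a fit without young replicates 1 and 3, both chosen after the data were seen.

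The members and lists were chosen with earlier results of these data known. Named genes are the members, up to 3 tested genes of each list with the smallest p, Igf2, Insr, Igfbp1 and Igfals, and the 3 genes most like the largest rise and the largest fall. Ins1, Ins2, M6pr, the partners Igf1os, Polr2b and Airn and the marker genes were named outside this rule after their values were seen.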

Additional observations from a re-analysis of the deposited data

How the results depend on the processing

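The fold changes of the 6 tested genes were estimated anew in 78 alternative values, all 78 with the same direction, and in 24 others (filters, moderation and replicate block) they are the same by construction. Of these 102, 97 kept the call. Igfbp4 fell by 0.10 with its call lost after median centring, ranged from -0.21 to -0.13 when each library was left out, and at a threshold of 0.01 was not called at -0.17. At that threshold Igfbp7 was not called either, at 0.73, which left 1 member higher. Without both libraries with kidney transcripts Igfbp7 stood at 0.90 and Igf2r at 0.14, neither called, so 0 members were higher (the fit has 1 young-labelled library), and 16 pathway genes were lower, where 41.0% of all genes were called against 60.0%. The cause was not tested. Of the scaling alternatives, median centring put the median fold change of all genes at 0.04 and the others between -0.02 and 0.00. Same-numbered libraries did not deviate together (correlations of 0.006, -0.008 and 0.019), and not every library correlated best with its own number. With the replicate number as a block, 2 members were higher and 4 lower, and 22 pathway genes were higher and 24 lower. Count models planned for the recovered reads were not run, since the table holds FPKM. Depth limits Igfbp2, Igfbp3 and Igfbp5, at most 43 reads in a library.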

Other observations

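Ratios between receptor transcripts within a library, chosen after their values were seen and not tested, also differed between the groups. Igf2r stood at 6.51, 6.38 and 6.77 times the FPKM of Igf1r in the young-labelled libraries and at 10.5, 9.56 and 9.50 times in the aged-labelled ones. Igf1r stood at 1.03, 1.09 and 0.991 times the FPKM of Insr in the young-labelled libraries and at 1.29, 1.34 and 1.36 times in the aged-labelled ones. M6pr, the other mannose 6-phosphate receptor gene, was at 37.6 ± 1.42 and 37.6 ± 1.35 FPKM (SD, n = 3). The insulin gene Ins2 had 0 reads in the young-labelled libraries and 13 in the aged-labelled ones. Genes with any read were also more numerous in the aged-labelled libraries (26703 to 26925 against 24074 to 24363), so this need not be particular to Ins2.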
